A study of Mus musculus with 12 samples.

Results

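Regions at gene ends are the open chromatin regions that lie within 1000 bp of either end of a protein-coding gene, measured from the edge of the region and taken as 0 bp where the region covers the end. Gene ends came from RefSeq for mouse assembly GRCm38.p6, which is mm10. Of the 94161 regions of the study, 15652 (16.62%) met this rule, 78417 lay farther away on numbered chromosomes and 92 lay on unplaced scaffolds. The rule used positions only and no measured value. Of the gene-end regions, 10860 lay within 1000 bp of a gene start, 1660 lay near far ends only, and 3132 lay near genes whose strand was not known, including all 394 on chromosome 18. They touched 12302 of 20665 genes (59.53%), and 2259 of them lay near 2 genes and 59 near 3 or more.

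Chromatin accessibility was measured by ATAC-seq, which reads out where the transposase Tn5 can cut and tag DNA, in unstimulated splenic B cells of female C57BL/6J mice. The 4 groups, with 3 libraries of 10000 cells each, were knockout marginal zone B cells (MZB), wild-type MZB, knockout follicular B cells (FoB) and wild-type FoB. Knockout refers to LSD1, the histone demethylase encoded by Kdm1a, and the sources used here do not give how the deletion was made or which cells carried it. Both gates took B220-positive cells without Thy1.1, F4/80, CD11b, CD93 or GL7. Within them MZB were CD23-negative, CD21-high and CD1d-positive, and FoB were CD23-positive, CD21-intermediate and CD1d-negative.

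A gene start is where RNA polymerase II assembles with general transcription factors, and active starts lie in a gap between nucleosomes that Tn5 enters readily. Many starts lie in CpG islands, stretches rich in the dinucleotide CG, which are open in most cell types, whereas cell-type-specific opening is better known from enhancers away from starts. LSD1 removes methyl groups from lysine 4 of histone H3 and is known for acting at enhancers and promoters, where it works with the CoREST proteins and histone deacetylases. MZB line the marginal sinus of the spleen and meet antigens carried in the blood, while FoB recirculate through the follicles.

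The promoter sequences below are shown because they belong to the highest gene-end regions, to starts that differed most between the cell types, and to starts that differed between the genotypes. Each is the 250 bases before a RefSeq start on GRCm38.p6, read 5′ to 3′ on the strand of the gene, with capitals marking matches to short motifs searched on both strands. The motifs of general promoter factors were the TATA box, spelled TATAAA, the CCAAT box, which the factor NF-Y binds, and the GC box of Sp and Klf factors, spelled GGGCGG. Those of other factors were CCGGAAG for the ETS family, GAGGAAG for its member PU.1, GCATGCG for the factor NRF1, TGACGTC for the cyclic AMP factors (CRE), ATGGCGG for the factor YY1, ATGCAAA for the octamer factors, TGANTCA for the dimers of AP-1, and CTGGGAA for RBPJ, the DNA-binding partner of Notch. Matches of different motifs may overlap. In all 20085 promoter windows of 300 bases, 250 before and 50 after a start, these were found in 12.7%, 38.1%, 47.0%, 11.9%, 13.2%, 4.51%, 3.92%, 5.29%, 4.29%, 7.06% and 10.7%, in that order. Pdcd10, whose region was among the highest, lies at chr3:75556853-75557102 on the minus strand, and Evi5l, among the highest per kb, at chr8:4166317-4166566 on the plus strand.
Pdcd10: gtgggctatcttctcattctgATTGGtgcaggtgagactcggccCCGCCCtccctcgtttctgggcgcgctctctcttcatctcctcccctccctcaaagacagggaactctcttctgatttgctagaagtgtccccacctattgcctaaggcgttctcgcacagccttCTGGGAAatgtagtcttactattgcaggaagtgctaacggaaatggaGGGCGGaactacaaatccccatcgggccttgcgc
Evi5l: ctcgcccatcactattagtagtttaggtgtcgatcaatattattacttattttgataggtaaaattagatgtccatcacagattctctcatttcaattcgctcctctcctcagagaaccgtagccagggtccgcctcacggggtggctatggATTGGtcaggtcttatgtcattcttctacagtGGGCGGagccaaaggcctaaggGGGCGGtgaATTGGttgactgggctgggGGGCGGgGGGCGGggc
Ube2e2 (chr14:18893772-18894021, minus strand), open mainly in MZB, holds 32 CG dinucleotides in these 250 bases, and Klra1 (chr6:130386875-130387124, minus strand), higher in FoB, holds 2.
Ube2e2: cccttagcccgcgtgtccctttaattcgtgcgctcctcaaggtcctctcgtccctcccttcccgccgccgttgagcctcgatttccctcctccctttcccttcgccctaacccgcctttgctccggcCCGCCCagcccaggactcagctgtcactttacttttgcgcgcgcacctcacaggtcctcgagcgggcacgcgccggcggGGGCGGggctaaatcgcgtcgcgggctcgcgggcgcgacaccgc
Klra1: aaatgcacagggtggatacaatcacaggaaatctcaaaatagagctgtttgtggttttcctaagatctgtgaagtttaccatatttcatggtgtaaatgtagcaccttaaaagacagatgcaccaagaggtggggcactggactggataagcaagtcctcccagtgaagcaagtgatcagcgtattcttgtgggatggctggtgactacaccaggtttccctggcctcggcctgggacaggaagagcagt
Lgr4 (chr2:109917397-109917646, plus strand) and Efnb2 (chr8:8661243-8661492, minus strand) were lower in both knockout groups, and the Lgr4 window holds 2 CCAAT boxes and 2 octamer-type matches.
Lgr4: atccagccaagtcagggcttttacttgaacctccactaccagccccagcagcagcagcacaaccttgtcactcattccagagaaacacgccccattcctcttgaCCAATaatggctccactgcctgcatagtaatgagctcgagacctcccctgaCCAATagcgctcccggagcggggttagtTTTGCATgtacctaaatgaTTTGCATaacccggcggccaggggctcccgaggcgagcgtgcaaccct
Efnb2: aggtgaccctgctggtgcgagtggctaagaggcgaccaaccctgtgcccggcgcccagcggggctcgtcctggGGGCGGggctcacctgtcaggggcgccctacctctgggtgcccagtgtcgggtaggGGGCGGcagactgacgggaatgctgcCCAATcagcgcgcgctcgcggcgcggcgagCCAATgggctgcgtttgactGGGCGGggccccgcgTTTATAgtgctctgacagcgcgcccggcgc
Srp54c (chr12:55230127-55230376, plus strand), higher in both knockout groups, is shown with its near-copy Srp54a (chr12:55080246-55080495, plus strand), because 213 of 223 aligned bases (95.52%) are identical.
Srp54c: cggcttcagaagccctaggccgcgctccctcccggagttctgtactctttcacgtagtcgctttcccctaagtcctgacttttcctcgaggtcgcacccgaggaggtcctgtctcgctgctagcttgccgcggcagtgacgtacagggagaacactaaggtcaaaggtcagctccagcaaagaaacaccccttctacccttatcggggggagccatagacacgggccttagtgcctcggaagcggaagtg
Srp54a: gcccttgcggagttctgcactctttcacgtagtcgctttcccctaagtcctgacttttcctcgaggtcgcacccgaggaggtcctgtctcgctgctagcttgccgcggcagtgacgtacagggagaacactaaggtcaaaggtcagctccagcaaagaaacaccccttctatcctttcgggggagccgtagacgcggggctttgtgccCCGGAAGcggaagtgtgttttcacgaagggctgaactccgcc

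Reads recovered over all regions ran from 3169966 in MZB knockout 2 to 10375328 in FoB wild type 2, so that 3 reads correspond to 0.2891 to 0.9464 units of rppm (reads in a region, scaled so that each library sums to 1000000 over the regions). Over gene-end regions, the chi-square per degree of freedom between pairs of libraries of 1 group was 1.076 to 1.817, more than sampling noise gives, except for FoB wild type 2 and 3, which differed by less than it (0.8928). Over all regions that pair did differ (1.578, with 133 regions past a chi-square of 25, against 2 when gene-end regions were compared alone). Both were therefore kept as separate libraries, and the knockout counts in FoB are also given with them averaged and counted as 1 sample. Among all gene-end regions, 12.37% were higher and 28.99% lower in wild-type MZB than in wild-type FoB. Of 13 regions at 7 of 8 MZB markers, 9 were higher and 1 lower, and of 17 regions at 6 FoB markers, 0 were higher and 8 lower. The lower calls did not single out FoB markers, since 9 of 19 regions at general B cell markers were also lower, with 1 higher. Of the defining markers of other cells, 3 of 6 for T cells, 5 of 7 for myeloid cells and 3 of 4 for NK cells had no gene-end region. Summed levels at the myeloid markers ran from 10.09 to 11.89 rppm in knockout MZB, 8.396 to 16.46 in wild-type MZB, 3.558 to 6.797 in knockout FoB and 4.928 to 6.208 in wild-type FoB. Summed levels at the T cell markers were 48.76 to 52.37 rppm in knockout MZB and 42.64 to 50.78 in wild-type MZB. They were 50.58 to 53.76 rppm in knockout FoB and 37.78 to 43.45 in wild-type FoB, so the genotypes did not overlap in FoB. Most of that sum came from 1 region at the far end of Cd3d, at 41.95 ± 1.72 rppm in knockout and 34.59 ± 2.82 rppm in wild-type FoB. Limma called none of the T cell marker regions in knockout FoB (adjusted p = 0.351 at Cd3d). Summed levels at the erythroid and megakaryocyte markers, 2 of 6 without a region, were 35.59 to 42.95 rppm in knockout FoB and 39.61 to 41.61 in wild-type FoB. They were 40.78 to 46.69 rppm in knockout MZB and 34.55 to 35.76 in wild-type MZB, so the genotypes did not overlap in MZB. The largest part was Klf1, at 20.88 ± 3.13 rppm in knockout and 18.21 ± 1.01 rppm in wild-type MZB. Limma called none of these regions in knockout MZB (adjusted p = 0.559 at Klf1). At the NK markers the ranges overlapped between knockout and wild type in MZB (5.363 to 6.797 and 4.354 to 7.557 rppm) and in FoB (5.337 to 6.179 and 6.168 to 7.163 rppm). The part of such cells in the results was not tested. The only region at Kdm1a covers its start and was not called in MZB (adjusted p = 0.773) or in FoB (adjusted p = 0.866), and as the deleted part of the gene is not given, it does not check the labels.

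Gene-end regions were wider and held more reads than the other regions. Their median width was 625 bp (quartiles 351 and 912), against 311 bp (189 and 449) for the other regions. Their median level over the 12 libraries was 16.7 rppm (4.795 and 38.2), against 3.189 rppm (1.46 and 8.036). Per kb of region width the medians were 26.63 and 10.43 rppm, so the difference in level was not only one of width. Of the 14158 regions with a mean of at least 20 rppm, 7078 (49.99%) lay at gene ends, which made up 16.62% of all regions. Regions are not replicates, and these are descriptions of 1 set of regions.

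The excess sat at the starts themselves. The 7109 regions that covered a gene start had a median width of 843 bp and a level of 32.12 rppm, or 37.02 rppm per kb. The 3751 that lay within 1000 bp of a start without covering it were 353 bp wide at 6.002 rppm (18.56 rppm per kb). The 1660 near far ends only were also 353 bp wide, at 4.141 rppm (12.27 rppm per kb), close to the other regions. The 1062 regions near starts of genes on both strands were the widest of these classes, at 871.5 bp and 38.77 rppm per kb.

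Level did not fall evenly with distance from a start of known strand. Gene-end regions whose strand was not known are counted here by the nearest start of known strand, which lies past 1000 bp. Some of them may cover true starts, and regions on chromosome 18 are left out. Per kb it was 15.26 rppm within 250 bp of a start without covering it, 16.7 rppm between 250 and 500 bp, 20.48 rppm between 500 and 1000 bp and 21.76 rppm between 1000 and 2000 bp. It was 20.83 rppm between 2000 and 5000 bp. Farther away it was lower, at 12.25 rppm between 5000 and 10000 bp and 9.309 rppm past 50000 bp. Measured from either end of any gene, with or without a known strand, regions just inside and just outside the 1000 bp limit were alike. The 561 regions 901 to 1000 bp from a gene end had a median of 335 bp and 5.471 rppm, and the 502 regions 1001 to 1100 bp away, just outside the rule, had 330.5 bp and 5.73 rppm.

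**Figure D1:**
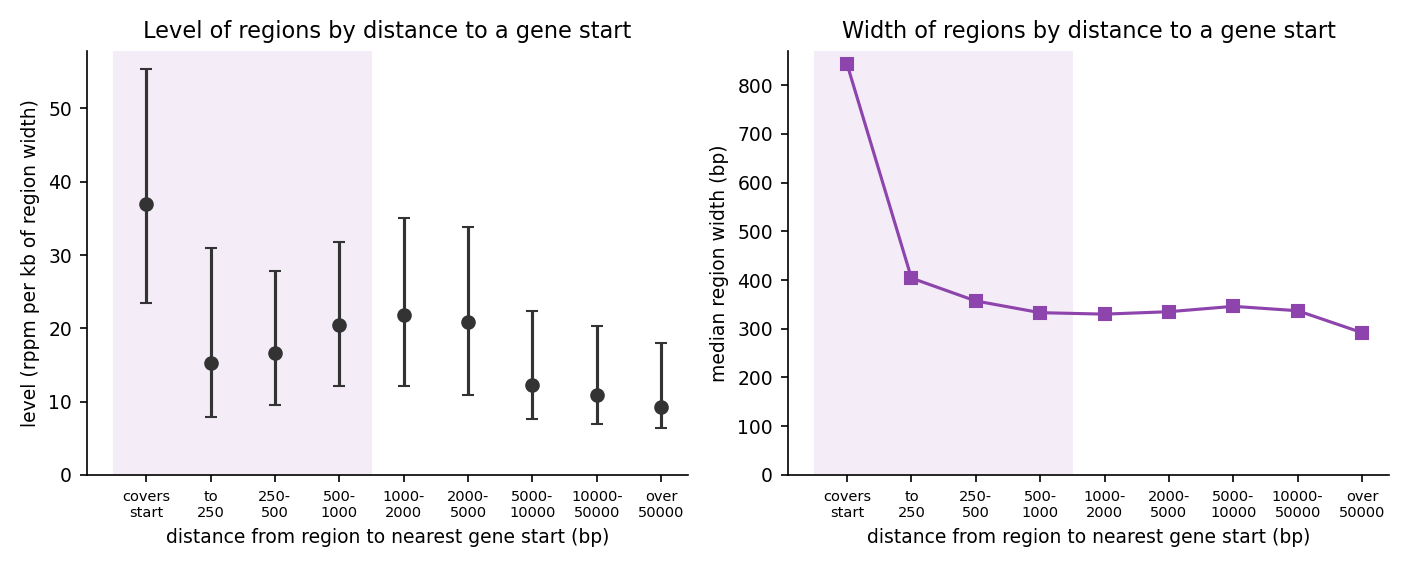
Median level per kb with quartiles (left, rppm per kb of width) and median width (right, bp) of regions by distance to the nearest gene start with known strand; the shaded bins lie within 1000 bp. Regions that cover a start stand apart at 37.02 rppm per kb and 843 bp, and the bins on both sides of 1000 bp are alike. The bins past 1000 bp include the gene-end regions whose strand was not known, and chromosome 18 is left out.

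The 6 gene-end regions with the highest levels all lay at starts. They belonged to Zbtb20, a zinc finger repressor gene, Pdcd10, which encodes a partner of the CCM complex of vessel walls, the aminopeptidase gene Lnpep, Ifrd1, Kbtbd3 and the phosphatase gene Ppm1k. The Pdcd10 region (chr3:75556013-75557736), which spans the promoter printed above, held 219.2, 165.6 and 199.8 rppm in the knockout MZB libraries, against 204.8, 208.2 and 211.2 rppm in wild-type MZB. It held 309.8, 315.8 and 319.5 rppm in knockout FoB and 314.6, 309.4 and 332.6 rppm in wild-type FoB. Every FoB library was above every MZB library, and the genotypes overlapped in MZB and in FoB. Per kb, 4 of the 6 highest regions lay side by side on chromosome 6, at the predicted genes Gm40365, Gm40364, Gm36327 and Gm40367. Their levels moved together from library to library, for example at Gm40365 with 154.8, 133.5 and 242.5 rppm in knockout FoB and 213.5, 123.3 and 139.7 rppm in wild-type FoB. These neighbours may share reads as near-copies of one another, and their levels are uncertain. The other 2 were Evi5l (192.5 rppm per kb), the gene of a Rab GTPase-activating protein, and M6pr, the gene of a mannose 6-phosphate receptor.

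Open starts were rich in CG dinucleotides. The 9019 promoter windows whose start was covered by a gene-end region had a median of 22 CG dinucleotides and 62% G and C, against 4 and 50.33% in the 9850 windows whose start no region covered. A further 1216 windows, with medians of 19 and 60.33%, had their start covered by an other region, outside the 1000 bp rule. The other regions used for comparison are therefore not all away from starts. Of windows with 0 to 4 CG dinucleotides 5.83% had their start covered by a gene-end region, and the share was 21.5% with 5 to 9, 60.5% with 10 to 19 and 74.3% with 20 or more. Among covered starts the median level was 18.14 rppm in the windows poorest in CG and 36.56 rppm in the richest.

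The motifs divided in the same manner. The GC box GGGCGG, itself made of G and C, was in 69.1% of covered and 25.3% of uncovered windows, and the ETS motif CCGGAAG in 21.9% and 2.53%. The TATA box was in 6.02% of covered and 19.7% of uncovered windows, and the AP-1 motif in 3.89% and 10.2%. The CCAAT box was about as frequent in both, at 39.8% and 37.0%. Covered and uncovered windows differ in CG content, motif frequency was not compared at like CG content, and a match is a description of letters, not of binding.

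The first comparison between groups asked whether LSD1 loss changed accessibility at gene ends in MZB. Of 15374 gene-end regions tested, limma called 57 higher and 33 lower in knockout than in wild-type MZB (0.5854%), against 0.777% of all tested regions (0.502% higher and 0.275% lower), so calls were no more frequent at gene ends than elsewhere. Among the other regions 394 were higher and 214 lower of 74408. At 15.61% of gene-end regions all 3 libraries of one genotype were above all 3 of the other, against 17.7% of all regions. The median log2 difference of the gene-end regions was 0.004, against -0.033 for the other regions. The standard error was smaller at gene ends, with a median of 0.1525 against 0.3044 on the log2 scale. Called regions differed by 0.40 to 1.95 where higher and by 0.36 to 2.14 where lower. Leaving out knockout 2, knockout 3 or wild type 3 left 27, 35 or 34 higher calls, in that order. Leaving out knockout 2, wild type 1, wild type 2 or wild type 3 left 11, 15, 10 or 9 lower calls. DESeq2 called 19 higher and 6 lower.

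In FoB the same comparison gave 35 gene-end regions higher and 35 lower in knockout than in wild type (0.4553%), against 0.539% of all tested regions (0.32% higher and 0.219% lower). Separation of all libraries was seen at 14.02% of gene-end regions, against 14.7% of all. The median difference was -0.021 at gene ends and -0.021 elsewhere. Leaving out knockout 2, knockout 3, wild type 1 or wild type 3 left 21, 17, 21 or 19 higher calls. Leaving out knockout 1, wild type 1 or wild type 3 left 23, 22 or 23 lower calls. With wild type 2 and 3 counted as 1 sample there were 22 higher and 20 lower, and DESeq2 called 15 and 14. In bulk libraries, a region open in fewer cells and a region less open in each cell cannot be told apart.

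By position, calls were spread over the genome with a few gatherings. The 90 calls in MZB fell in 73 windows of 5 Mb and the 70 in FoB in 53. On chromosome 12 between 55 and 60 Mb, 4 of 25 gene-end regions were higher in knockout MZB and 5 of 25 in knockout FoB, with 0 lower. On chromosome 1 between 130 and 135 Mb, 3 of 80 were higher and 2 lower in knockout MZB, and 1 higher and 2 lower in knockout FoB. Between 135 and 140 Mb, 1 of 37 was higher and 2 lower in knockout MZB, and 0 and 3 in knockout FoB. In the window from 140 to 145 Mb 4 of 10 were lower in knockout FoB. By class, 24 higher and 13 lower regions in knockout MZB covered a gene start (0.5219% of 7089), and 6 and 4 lay near far ends only (0.625% of 1600). In knockout FoB these counts were 14 and 13 at starts (0.3809%) and 5 and 6 at far ends (0.6875%).

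The MZB and FoB comparisons share no library, and 21 gene-end regions were called in the same direction in both, with 0 called in opposite directions. The 12 higher in both made up 21.05% of the 57 higher in knockout MZB and 34.29% of the 35 higher in knockout FoB. The 9 lower in both made up 27.27% of 33 and 25.71% of 35. The shared calls were not all at separate places. Atp2b4 (higher) and Cd55, Ube2t, Elf3, Rnpep and Glrx2 (lower) lie on chromosome 1 between 130 and 145 Mb. Fam177a, Srp54b, Fam177a2 and Srp54c (higher) lie on chromosome 12 between 55 and 60 Mb. Of the 57 regions higher in knockout MZB, 52 had a difference above 0 in FoB, and of the 33 lower, 31 had one below 0. Both comparisons came from 1 fit with a shared estimate of the spread of each region, so their calls are not fully independent. The labels do not give whether MZB and FoB came from the same animals.

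The regions higher in both held 2 pairs of near-copies on chromosome 12. At Srp54b (chr12:55154590-55155858), which encodes a GTPase subunit of the signal recognition particle that guides nascent proteins to the endoplasmic reticulum, levels were 145.5, 131.9 and 141 rppm in the knockout MZB libraries, against 77.19, 58.49 and 65.31 rppm in wild-type MZB. In FoB they were 150.4, 144.8 and 194.4 rppm in knockout and 105.7, 83.56 and 71.63 rppm in wild type. Each knockout library was above each wild-type library of its cell type (log2 fold change 1.06 ± 0.11 in MZB, adjusted p = 8.33e-08, and 0.91 ± 0.11 in FoB, adjusted p = 3.36e-06). Srp54c stood at 155.7 ± 11.5 rppm in knockout and 78.05 ± 7.51 rppm in wild-type MZB (SD, n = 3). The neighbouring pair Fam177a and Fam177a2 differed by 0.99 and 0.93 in MZB and by 0.90 and 0.82 in FoB on the log2 scale. All 8 calls were kept without any 1 library, and the call at Fam177a2 in FoB was not made by DESeq2 (adjusted p = 0.0741). The last 41 bases of the 250-base window of Srp54b are identical to the first 41 of that of Srp54c. The windows are offset against each other, so this length does not measure how much of the promoters is alike. With these shared bases and the likeness of Srp54a and Srp54c shown above, reads may be split among the copies and the level of each is uncertain.

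Other regions higher in both lay at single genes. At Tsc22d1, the gene of a leucine zipper protein induced by TGF-beta, levels were 31.07 ± 1.90 rppm in knockout and 16.23 ± 0.717 rppm in wild-type MZB, and 22.46 ± 2.05 and 12.65 ± 2.76 rppm in knockout and wild-type FoB (SD, n = 3 each). The adrenergic receptor gene Adra1d held 15.16, 13.25 and 14.19 rppm in knockout and 5.668, 5.849 and 5.909 rppm in wild-type MZB (1.22 ± 0.24, adjusted p = 0.00456). In FoB the Adra1d call (1.18 ± 0.24, adjusted p = 0.00726) was lost without knockout 2 (0.0559) and without wild type 1 (0.111), where wild type 1 was the lowest library at 1.916 rppm, and DESeq2 did not make it (0.0694). Txnl4a, a spliceosome gene on chromosome 18, differed by 1.29 ± 0.25 in MZB (adjusted p = 0.00343) and by 1.65 ± 0.25 in FoB (adjusted p = 0.000127), and the MZB call was lost without wild type 3 (0.0688) and in DESeq2 (0.148).

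Among regions lower in both, Lgr4, which encodes a receptor for R-spondins that strengthen Wnt signalling, held 20.99, 23.03 and 27.19 rppm in knockout and 41.56, 47.59 and 45.09 rppm in wild-type MZB. It held 7.864, 11.33 and 15.5 rppm in knockout and 24.91, 22.46 and 19.34 rppm in wild-type FoB. The groups did not overlap in either cell type (-0.91 ± 0.16 in MZB, adjusted p = 0.0012, and -0.96 ± 0.16 in FoB, adjusted p = 0.000601). The region (chr2:109917311-109918185) spans the promoter printed above. Pstpip2, the gene of a cytoskeletal adaptor on chromosome 18, stood at 12.88 ± 1.55 rppm in knockout and 30.27 ± 2.36 rppm in wild-type MZB, and at 8.011 ± 2.97 and 17.03 ± 1.55 rppm in knockout and wild-type FoB. Rnpep, an aminopeptidase gene on chromosome 1, held 8.63, 9.148 and 5.911 rppm in knockout and 17, 17.01 and 15.24 rppm in wild-type MZB (-1.03 ± 0.19, adjusted p = 0.00249). In FoB it held 6.415, 3.914 and 4.829 rppm in knockout and 13.42, 13.78 and 16.71 rppm in wild type (adjusted p = 1.35e-05).

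Efnb2, which encodes ephrin-B2, a membrane ligand of Eph receptors, was lower by less, at 36.86 ± 2.76 rppm in knockout and 50.19 ± 2.54 rppm in wild-type MZB and at 41.62 ± 6.41 and 59.69 ± 3.15 rppm in knockout and wild-type FoB. Its MZB call (adjusted p = 0.0331) was lost without knockout 2 (0.0721), knockout 3 (0.156) or wild type 1, 2 or 3 (0.0626, 0.108 and 0.153) and in DESeq2 (0.2502), and its FoB call (adjusted p = 0.00797) without knockout 1 (0.123) and with FoB wild type 2 and 3 counted as 1 sample (0.0501). Cd55, the gene of a complement regulator, stood at 4.534 ± 0.719 rppm in knockout and 10.28 ± 0.342 rppm in wild-type MZB, and at 4.592 ± 1.23 and 9.679 ± 3.20 rppm in knockout and wild-type FoB. The Cd55 call was lost in MZB without knockout 2 (0.0509), and in FoB without knockout 2 (0.148), knockout 3 (0.106) or wild type 3 (0.354) and with FoB wild type 2 and 3 counted as 1 sample (0.102). DESeq2 made neither Cd55 call (0.107 in MZB and 0.159 in FoB).

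**Figure D2:**
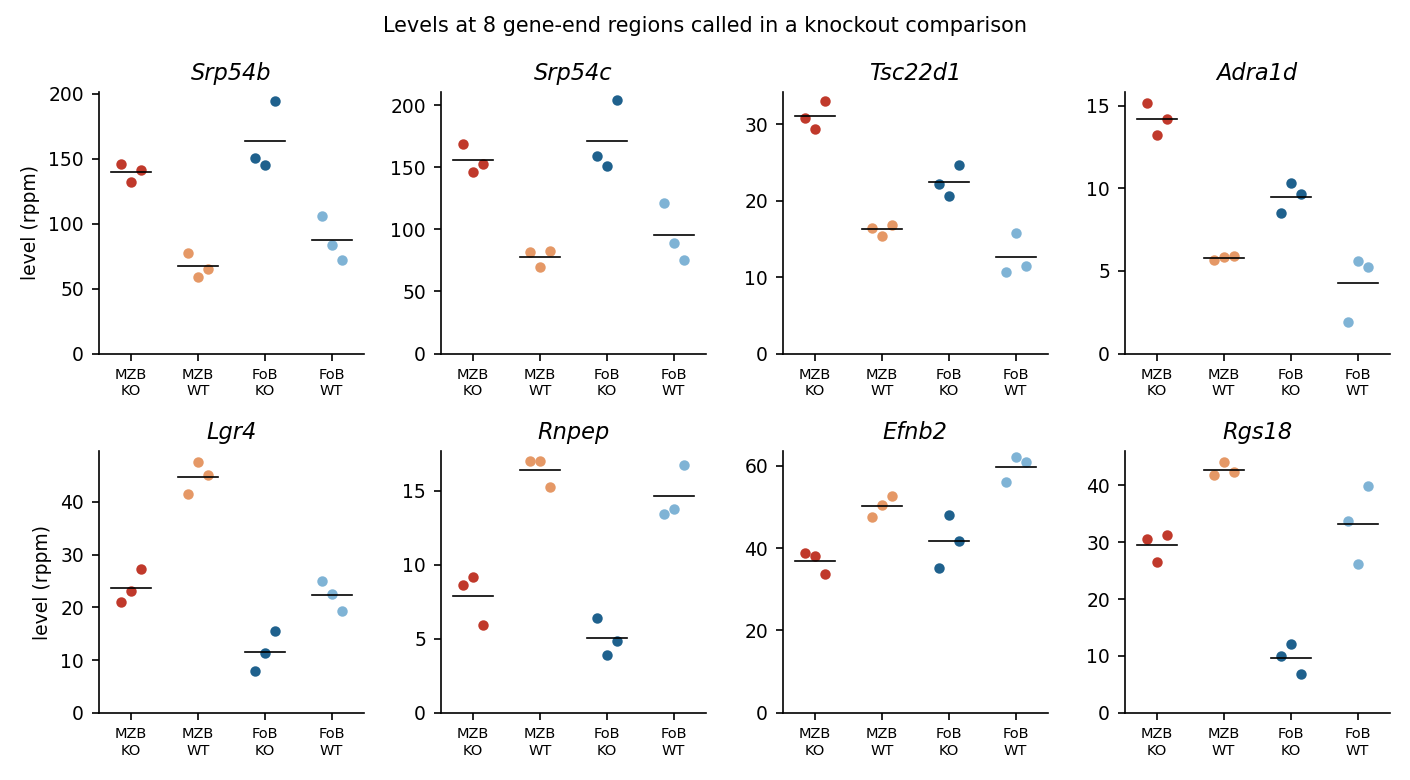
Levels (rppm) in every library at 8 gene-end regions called in a knockout comparison, with group means as lines; KO is knockout and WT wild type. The upper 4 regions were higher and the lower 4 lower in knockout, and at Rgs18 FoB knockout libraries lie between 6.862 and 12.15 rppm, below the other groups.

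Some of the largest differences were called in MZB. Gipc2, which encodes a PDZ-domain protein, held 8.396, 5.678 and 11.23 rppm in knockout and 1.08, 1.861 and 2.488 rppm in wild-type MZB (1.95 ± 0.33, adjusted p = 0.000697). Etnk2, an ethanolamine kinase gene on chromosome 1, held 7.23, 7.256 and 9.457 rppm in knockout and 2.159, 2.924 and 1.866 rppm in wild-type MZB (1.60 ± 0.28, adjusted p = 0.00127). Tmem9, on the same chromosome, held 6.53, 7.571 and 9.162 rppm in knockout and 2.699, 2.924 and 1.866 rppm in wild-type MZB (1.47 ± 0.28, adjusted p = 0.00348). At each of them every knockout library was above every wild-type library, and leaving out any 1 library kept the call. In FoB the differences at Gipc2, Etnk2 and Tmem9 had the same direction without a call in limma (1.16, 0.62 and 0.43, adjusted p = 0.108, 0.493 and 0.708). Nectin2, which encodes an adhesion molecule, was higher (1.39 ± 0.33, adjusted p = 0.0316), but the call was lost without any of knockout 1, 2 or 3 (0.106, 0.0599 and 0.104), wild type 1 (0.248) or wild type 3 (0.0562), and in DESeq2 (0.143). Nectin2 differed by 1.27 in FoB, close to its MZB difference, without a call in limma (adjusted p = 0.067). Further decreases in knockout MZB, at regions of at least 5 rppm in wild type, lay at the steroid dehydrogenase gene Hsd17b2 (-1.55), the xylosyltransferase gene Gxylt2 (-1.26), Cbln2 (-1.25) and the myosin gene Myo18a (-1.04). In FoB, Gxylt2, Cbln2 and Myo18a differed by -0.41, -0.81 and -0.35 without a call in limma (adjusted p = 0.76, 0.31 and 0.768). The Hsd17b2 call was lost without knockout 2 or 3 or any wild-type MZB library (adjusted p up to 0.185), and the Gxylt2 call without any 1 MZB library (up to 0.158). The Cbln2 call was lost without knockout 2, wild type 1 or wild type 3 (up to 0.256), and the Myo18a call without any knockout MZB library, wild-type MZB 1 or 2, FoB knockout 2 or FoB wild type 2 or 3 (up to 0.2175). DESeq2 did not call Gxylt2 (0.248), Cbln2 (0.247) or Myo18a (0.311), and gave no adjusted p at Hsd17b2.

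In FoB the lowest adjusted p at a gene end belonged to Rgs18 on chromosome 1, whose RGS protein dampens signalling through G proteins. It held 9.933, 12.15 and 6.862 rppm in knockout and 33.68, 26.22 and 39.87 rppm in wild-type FoB (-1.75 ± 0.15, adjusted p = 1.32e-09). In MZB the same region held 30.55, 26.5 and 31.33 rppm in knockout and 41.83, 44.13 and 42.29 rppm in wild type, without overlap but short of the threshold (-0.53 ± 0.15, adjusted p = 0.0845). Lrig1, which encodes a membrane protein that restrains growth factor receptors, held 8.277, 10.92 and 9.15 rppm in knockout and 19.71, 24.38 and 20.06 rppm in wild-type FoB (-1.14 ± 0.18, adjusted p = 0.00024). Ncald, a neuronal calcium sensor gene, was higher, with 9.312, 11.74 and 11.44 rppm in knockout and 3.833, 5.59 and 3.343 rppm in wild-type FoB (1.27 ± 0.23, adjusted p = 0.00191). These 3 calls were kept without any 1 library. In MZB, Lrig1 and Ncald differed in the same direction without a call in limma (-0.45 and 0.30, adjusted p = 0.245 and 0.613).

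Whether the knockout effect differed between the cell types was tested with an interaction term, the effect in MZB minus that in FoB. Limma called 0 gene-end regions, against 0.00111% of all tested regions (1 region), and 793 had an unadjusted p under 0.05. Rgs18 came closest (1.22 ± 0.21, adjusted p = 0.0545), with the sign of a smaller decrease in MZB. It was called without FoB knockout 2 (0.00679) or FoB wild type 2 (0.0032), with FoB wild type 2 and 3 counted as 1 sample (0.031), by edgeR (0.0369) and with a pseudocount of 2 (0.0438), and DESeq2 called 0.

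Genes of B cell pathways showed few knockout differences at their ends, beside 0.3708% of all gene-end regions higher and 0.2146% lower in knockout MZB, and 0.2277% higher and 0.2277% lower in knockout FoB. With lists of this size a share rests on 1 to 3 regions. Of 36 tested regions at marginal zone programme genes 1 was higher in knockout MZB, at Hes5, with 25.18 ± 2.66 rppm in knockout and 16.33 ± 2.48 rppm in wild type. Hes5, a Notch target, and Hey1, another, which was lower at 43.71 ± 8.66 rppm in knockout and 67.01 ± 1.52 rppm in wild-type MZB, were the only calls among 39 Notch pathway regions. Both calls were lost without some single libraries (Hes5 without knockout 2, knockout 3 or wild type 1, at 0.0604, 0.112 and 0.148, and Hey1 without knockout 1, knockout 2 or wild type 1, 2 or 3, at 0.0977, 0.0595, 0.0695, 0.0534 and 0.0863), and DESeq2 made neither (0.121 and 0.0566). In knockout FoB 3 of 45 migration and adhesion regions were lower and 0 higher. The lower ones lay at the chemokine receptor gene Cxcr4 and at Rgs13 and Rgs1, which encode regulators of G protein signalling. All lie on chromosome 1 (chr1:128591984-128592873, chr1:144178231-144178844 and chr1:144243348-144243907). Rgs13 and Rgs1 belong to the window from 140 to 145 Mb in which 4 of 10 gene-end regions were lower. Rgs13 was also the only call among 13 germinal centre regions, and Cd55, described above, the only one among 37 follicular programme regions. Rgs13 stood at 36.52 ± 4.43 rppm in knockout and 56.08 ± 3.63 rppm in wild-type FoB (adjusted p = 0.000537), and Cxcr4 at 39.68 ± 2.11 and 58.73 ± 8.24 rppm (adjusted p = 0.00618). The Cxcr4 call was lost without knockout 2 (0.0503), wild type 1 (0.0765) or wild type 3 (0.0564), and the Rgs1 call (adjusted p = 0.0341) without FoB knockout 1 (0.299), any wild-type FoB library (0.0827, 0.0783 and 0.157) or any wild-type MZB library (0.0544, 0.0514 and 0.0518). The Rgs1 call was also lost with FoB wild type 2 and 3 counted as 1 sample (0.119) and in DESeq2 (0.297). In MZB, Rgs1, Rgs13 and Cxcr4 differed by -0.85, -0.26 and -0.07 without a call in limma (adjusted p = 0.0668, 0.248 and 0.825).

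Markers of immature and transitional B cells had 2 of 9 regions higher and 0 lower in knockout MZB, beside the 0.3708% of all gene-end regions that were higher. Cd93, the surface marker left out of both gates, held 31.95, 27.13 and 37.53 rppm in knockout and 16.46, 22.6 and 20.52 rppm in wild-type MZB, beside 41.39, 39.55 and 40.16 rppm in knockout and 35.32, 37.3 and 33.66 rppm in wild-type FoB. Sox4, an early lymphocyte factor gene, stood at 80.05 ± 3.62 rppm in knockout and 60.72 ± 4.29 rppm in wild-type MZB, with the call lost without knockout 2 (0.0766) or wild type 1 or 3 (0.0736 and 0.0778). Limma called 1 of 99 ribosomal protein regions in MZB, with Rpl30 lower in knockout (adjusted p = 0.0333), and the call was lost without knockout 2 or 3 (0.143 and 0.07) or wild type 2 or 3 (0.113 and 0.236), and in DESeq2 (0.218). Among regions of B lineage transcription factors (60), B cell receptor signalling (36), NF-kB (34), Toll-like receptors (25), the LSD1 complex (31), histone methylation enzymes (43), interferon response (27) and cell cycle genes (47), limma called 0 in either cell type. Limma also called 0 regions of plasma cell (15), housekeeping (20), B-1 (13), T cell (10), myeloid (7), NK (6), erythroid (6) and dendritic cell genes (11).

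Cell type divided the gene-end regions far more. Of 15374 tested, 1901 were higher and 4457 lower in wild-type MZB than in wild-type FoB (41.36%), against 35.7% of all tested regions (24.2% higher and 11.4% lower). Of the other regions 19856 were higher and 5812 lower, so the direction was the reverse of that at gene ends. The cell types did not overlap at 54% of gene-end regions, against 46.7% of all. The median log2 difference was -0.15 at gene ends and 0.26 elsewhere. Knockout cells gave 1866 higher and 3745 lower in MZB than in FoB (36.5%), against 32.7% of all (23.2% higher and 9.47% lower), with medians of -0.12 and 0.21. The wild-type and knockout comparisons share no library. They had 1305 higher regions in common, which is 68.65% of the wild-type and 69.94% of the knockout calls, and 2974 lower ones, which is 66.73% and 79.41%, while 2 regions were called in opposite directions.

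The sizes of these differences and the numbers of calls depend on the scaling. Each deposited library sums to 1000000, and scaling with TMM moved the median of all regions by -0.175 in wild type and by -0.1665 in knockout on the log2 scale. With TMM, edgeR called 1429 gene-end regions higher and 7131 lower in wild-type MZB, so 16.69% of calls were higher, against 29.9% in limma and 30.59% in edgeR without TMM, and DESeq2 had 15.01%. In knockout cells the shares were 17.48% with TMM and 15.83% in DESeq2, against 33.26%. With TMM the medians kept their signs, at -0.32 at gene ends and 0.15 elsewhere in wild type, and -0.29 and 0.09 in knockout. A scaling factor shifts all regions of a library alike and does not bear on the gap between the medians of gene-end and other regions, which was -0.41 in limma and -0.47 in edgeR in wild type, and -0.33 and -0.37 in knockout.

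The share of all reads in gene-end regions showed the same contrast library by library. It was 38.0%, 37.5% and 37.9% in knockout MZB and 37.4%, 38.1% and 37.9% in wild-type MZB. It was 42.7%, 43.3% and 44.7% in knockout FoB and 45.2%, 43.9% and 43.0% in wild-type FoB. Every MZB library was below every FoB library, while the genotypes overlapped within each cell type. Regions near starts carried this, with 29.6% ± 0.327 in wild-type MZB and 35.1% ± 0.917 in wild-type FoB (SD, n = 3 each). Regions near far ends only went the other way, at 1.379% ± 0.0167 in wild-type MZB and 1.297% ± 0.0187 in wild-type FoB.

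**Figure D3:**
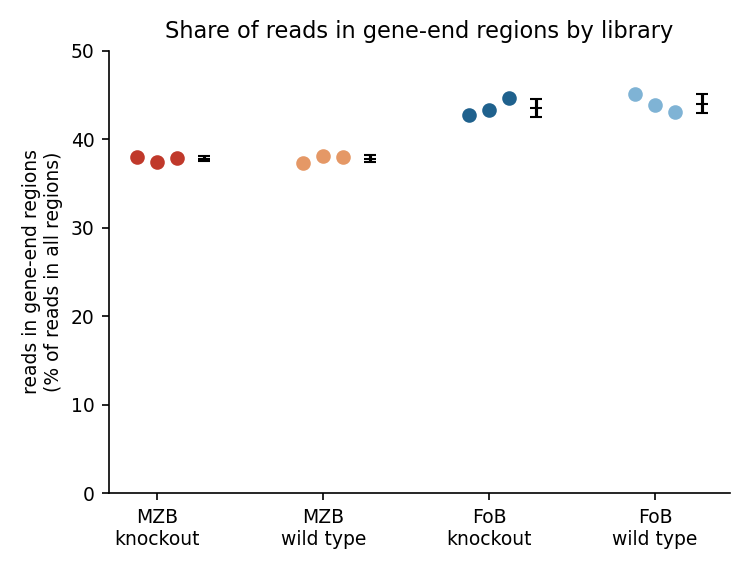
Share of each library's reads over all regions that fall in gene-end regions (%, points), with the mean and SD of each group of 3 libraries as bars. MZB libraries lie between 37.4% and 38.1% and FoB libraries between 42.7% and 45.2%, with knockout and wild type overlapping.

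The classes of gene-end regions differed in direction between the cell types. Of 7089 tested regions that covered a start, 516 were higher and 3067 lower in wild-type MZB, with a median of -0.25. Regions near a start without covering it were nearly balanced, with 557 higher and 508 lower of 3631 and a median of 0.01, but edgeR with TMM gave 431 higher and 950 lower with a median of -0.16. Those near far ends only were higher more often, with 379 higher and 162 lower of 1600 and a median of 0.18, but edgeR with TMM gave 311 and 265 with a median of 0.03. Regions near starts of genes on both strands were the most one-sided, with 26 higher and 506 lower of 1058. With distance from a start of known strand the median rose steadily, to 0.05 between 1000 and 2000 bp, 0.13 between 5000 and 10000 bp and 0.30 past 50000 bp. These distances past 1000 bp include the gene-end regions whose strand was not known.

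The difference also varied with the level of the regions. Among regions at or below 2 rppm the median difference was 0.49 at gene ends and 0.37 elsewhere, between 10 and 20 rppm it was -0.15 and 0.09, and between 20 and 50 rppm it was -0.26 and -0.10. Above 100 rppm it was -0.33 and -0.15. In every class over 2 rppm the median of gene-end regions was below that of other regions of like level, and at or below 2 rppm it was above it. The other regions include those that cover the starts of 1216 promoter windows.

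**Figure D4:**
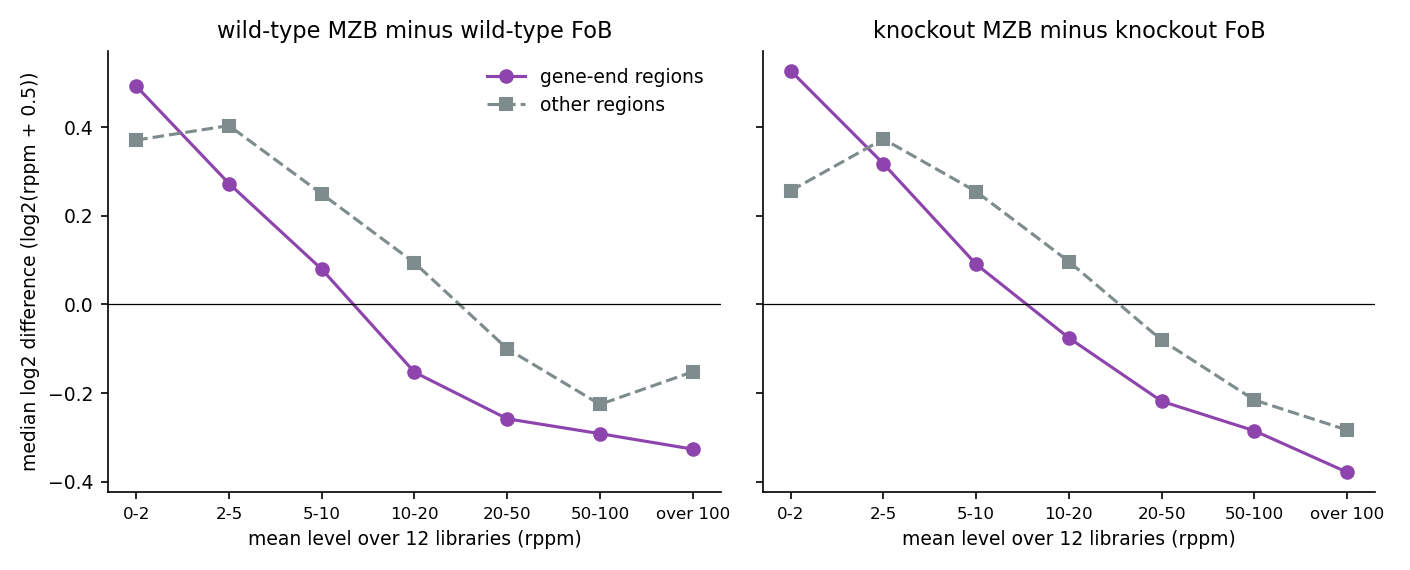
Median log2 difference between MZB and FoB on the log2(rppm + 0.5) scale, by mean level over the 12 libraries, for wild-type (left) and knockout cells (right), with gene-end regions as circles and other regions as squares. In both panels gene-end regions lie below the others in every class over 2 rppm and their median falls from class to class, while that of the other regions is higher at 2 to 5 rppm than at or below 2 rppm.

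The sequence of the start went with the difference as well. In covered windows with 0 to 4 CG dinucleotides 28.4% were lower and 21.6% higher in wild-type MZB, and with 20 or more these were 49.6% and 4.49%, with medians of -0.10 and -0.28. The CCAAT box was in 45.9% of windows lower in wild-type MZB, 31.1% of those higher and 35.4% of those not called. The ETS motif CCGGAAG was in 23.6%, 9.46% and 22.2%, and the octamer-type motif ATGCAAA in 3.01%, 5.71% and 3.22%. These sets also differed in CG content, with medians of 24, 17 and 21 CG dinucleotides, and motifs were not compared at like CG content. Covered starts differed in level too, from 18.14 rppm in the windows poorest in CG to 36.56 rppm in the richest. The difference between the cell types was not compared over CG content at like level. The knockout calls covered 42 windows in MZB and 32 in FoB, and their motifs were not compared.

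**Figure D5:**
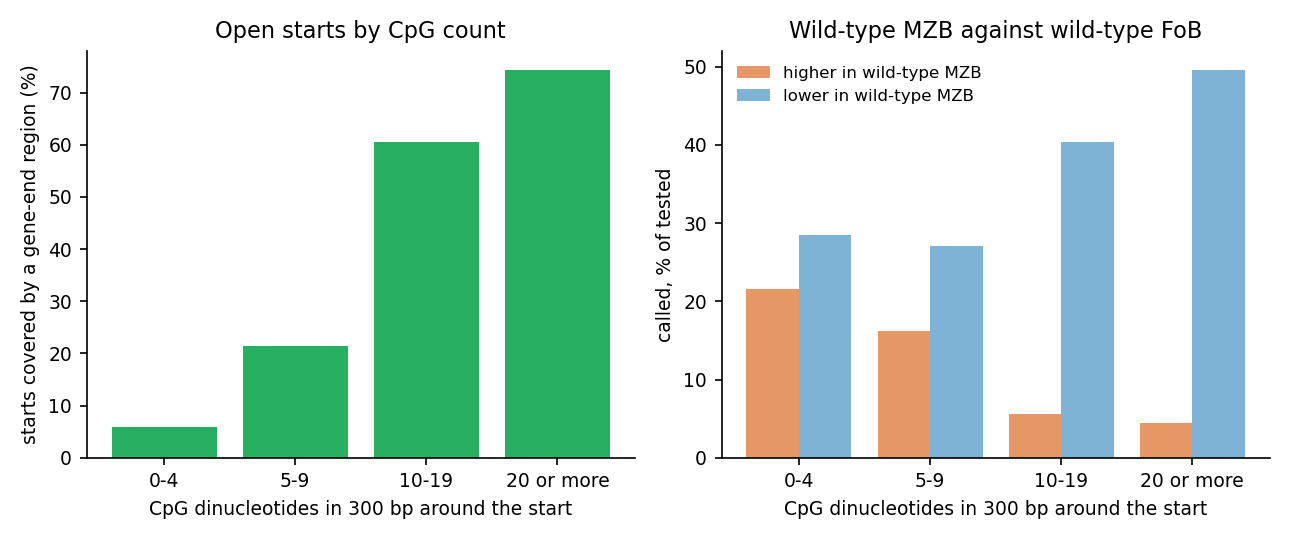
Left, the share of promoter windows whose start is covered by a gene-end region (%), by the number of CG dinucleotides in the 300 bases. Right, the share of the covered and tested windows called higher and lower in wild-type MZB than in wild-type FoB (%), where lower calls reach 49.6% and higher calls 4.49% with 20 or more.

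Single regions went far beyond these medians. Drd5, a dopamine receptor gene, held 24.56, 27.12 and 21.15 rppm in wild-type MZB and 0.5476, 0.5783 and 0.955 rppm in wild-type FoB (4.39 ± 0.27, adjusted p = 4.71e-15). Every wild-type MZB library was far above every wild-type FoB library, and the FoB libraries stood near the level of a few reads. At Ube2e2, a ubiquitin-conjugating enzyme gene whose promoter is printed above, 69 reads in wild-type MZB stood against 3 in wild-type FoB, a ratio of 39.2 after scaling (95% exact counting interval 12.9 to 194.8). At the far end of 4933427D14Rik 65 reads stood against 2 (55.4, 14.7 to 467.3). These intervals cover counting error only, on reads summed over the libraries of each group, and not the spread between libraries. Zfp532 and Nckap5 were also higher in wild-type MZB (4.02 ± 0.34 and 3.59 ± 0.36).

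Regions higher in FoB differed by less. Klra1, which encodes a Ly49 receptor of NK cells, held 1.889, 3.19 and 1.866 rppm in wild-type MZB and 6.571, 10.41 and 11.46 rppm in wild-type FoB (-1.82 ± 0.25, adjusted p = 5.04e-07). Aim2, a sensor of cytosolic DNA, held 4.048, 2.393 and 4.043 rppm in wild-type MZB and 11.5, 11.86 and 12.89 rppm in wild-type FoB (-1.69 ± 0.22, adjusted p = 1.05e-07). The libraries did not overlap at either start. Fam214a (-2.04 ± 0.19), Gpatch2 (-1.83 ± 0.32), the proton channel gene Hvcn1 (-1.80 ± 0.27) and Gpr142 (-1.69 ± 0.22) completed the 6 largest decreases among regions of at least 5 rppm in FoB, where Gpatch2 and Gpr142 lay near far ends. Called differences of at least 2-fold numbered 1028 higher and 111 lower in wild-type MZB, so most lower calls were smaller than that.

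At genes of known programmes, marginal zone genes had 16 of 36 regions higher and 10 lower in wild-type MZB (median 0.41), and follicular genes 1 of 37 higher and 15 lower (median -0.47), beside 12.37% higher and 28.99% lower among all gene-end regions. The far end of Cd9, which encodes a tetraspanin of MZB, stood at 77.84 ± 6.86 rppm in wild-type MZB and 19.65 ± 3.13 rppm in wild-type FoB, and the start of Fcer2a, which encodes CD23, at 26.49 ± 5.11 and 63.43 ± 5.49 rppm. All 3 gene-end regions of Ackr3, an atypical chemokine receptor gene, and both of Plac8 were higher in wild-type MZB, while Cr2, the gene of CD21, was lower at its main start region (53.26 ± 3.82 rppm in wild-type MZB and 73.08 ± 6.74 rppm in wild-type FoB), although MZB carry more CD21 by the gate. Of 99 ribosomal protein regions 38 were lower and 1 higher, of 20 housekeeping regions 12 and 0, of 60 B lineage factor regions 20 and 5, of 36 B cell receptor regions 18 and 2 and of 45 migration regions 19 and 3. Notch genes had 14 lower and 9 higher of 39, NF-kB genes 14 and 4 of 34, Toll-like receptor genes 6 and 2 of 25, cell cycle genes 19 and 4 of 47, histone methylation enzymes 13 and 1 of 43 and the LSD1 complex 8 and 0 of 31. Interferon genes had 9 lower and 0 higher of 27, plasma cell genes 6 and 2 of 15, germinal centre genes 4 and 0 of 13, immature markers 7 and 0 of 9 and B-1 markers 5 and 2 of 13. In edgeR with TMM the lower regions numbered 67 for ribosomal proteins, 28 for the B cell receptor, 24 for follicular genes, 16 for the LSD1 complex, 15 for interferon genes and 12 for Toll-like receptors, each over 1.5 times the count in limma.

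Genes of other lineages went the other way in part. Of 6 NK cell regions 4 were higher and 0 lower in wild-type MZB (median 1.41), of 7 myeloid regions 4 and 0 (0.83), of 10 T cell regions 2 and 0 (0.43), of 6 erythroid regions 3 and 1 (0.60) and of 11 dendritic cell regions 4 and 2 (-0.09). The median level of these lists was 2.20 to 6.95 rppm, in the classes where the median of all regions was above 0. In edgeR with TMM the higher regions were 3 of 6, 2 of 7, 1 of 10, 3 of 6 and 4 of 11, and 1 T cell region was lower. In DESeq2 they were 2, 1, 0, 0 and 4. Prf1, the perforin gene of cytotoxic cells, held 9.986, 8.241 and 11.51 rppm in wild-type MZB and 2.19, 2.891 and 2.149 rppm in wild-type FoB (1.84 ± 0.24).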

How the data were processed

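Accessibility was measured by ATAC-seq in 12 libraries of 4 groups. Per the submitters' processing notes, reads were aligned to mm10 with Bowtie 1.1.1 and peaks were called with MACS2, in an order and with settings not given in the sources used here. The authors deposited 1 table of regions with RPM values scaled to the reads in all regions (here rppm), and each column sums to 1000000. Whole reads were recovered from the steps of the deposited values, with 100% of values whole within 0.01, at 3169966 to 10375328 reads per library. Floors of 3 reads cover counting error only.

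Gene ends came from RefSeq on GRCm38.p6 for 20665 protein-coding genes, of which 16457 had a strand from the promoter table. Differences were tested with limma 3.58.1 in R 4.3.3 on log2(rppm + 0.5), with 4 group coefficients over 12 libraries, two-sided, at a Benjamini-Hochberg adjusted p under 0.05 over the 89782 regions that reached 1 rppm in 3 or more libraries. Of 15652 gene-end regions 15374 were tested. Values after ± are standard errors for log2 differences and SD for levels. Fold changes on this scale understate those of low regions. edgeR 4.0.16 (quasi-likelihood) and DESeq2 1.42.0 took the recovered reads as counts, and edgeR called 59 gene-end regions higher and 38 lower in knockout MZB, 39 and 41 in knockout FoB, 1429 and 7131 in wild-type MZB against FoB and 1338 and 6318 in knockout MZB against FoB. No source states whether the libraries of a group are from different animals, and the p-values therefore measure spread among libraries that may be technical. The limma fit was also run on simulated counts with planted changes and the same spread setting at every region. That setting is simpler than these libraries, so the run does not bear on single calls.

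The members and the 23 gene lists were chosen with earlier results of these data known. Named regions were, per comparison and direction, up to 6 called regions with the largest difference, no overlap and at least 5 rppm in the higher group, the called members of each list or those of smallest p, the 6 highest by rppm and by rppm per kb, Kdm1a, and up to 8 called in both knockout comparisons. Other regions named beside them were chosen after their values were seen. Some regions that the rule names are not reported here. Alternatives covered the pseudocount, the filter, the test and scaling, the libraries in the fit, the replicate number and a 500 bp limit.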

Additional observations from a re-analysis of the deposited data

How the results depend on the processing

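The counts of knockout calls at gene ends depended on the settings, and the median of regions near a start without covering it, 0.01 in wild-type MZB against FoB, was -0.16 in edgeR with TMM and -0.15 in DESeq2. The count of regions higher in knockout MZB, 57 in limma, was 19 in DESeq2 and 27 to 71 with 1 library left out. For the 33 lower the count was 16 with a pseudocount of 0.1, 70 with a pseudocount of 2, 6 in DESeq2 and 69 with only the compared groups fitted, and 9 to 46 with 1 library left out. For the 35 higher in knockout FoB it was 15 in DESeq2, 18 with only the compared groups and 22 with FoB wild type 2 and 3 counted as 1 sample, and 17 to 40 with 1 library left out. For the 35 lower it was 14, 19 and 20 under these settings, and 22 to 36. Between the cell types DESeq2 called 985 higher in wild type and 897 higher in knockout, and edgeR with TMM called 7131 and 6318 lower. The interaction gave 1 region with a pseudocount of 2, in edgeR with and without TMM and with FoB wild type 2 and 3 as 1 sample, and 0 to 1 with 1 library left out. The median of gene-end regions minus that of other regions was -0.312 with a pseudocount of 2 and -0.472 in edgeR with TMM (-0.471 without it) in wild type, and -0.2499 with a pseudocount of 2 in knockout. The causes were not tested. edgeR without TMM and the averaged FoB pair were chosen after seeing the data.

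Same-numbered libraries deviated together in 2 of 18 pairs (r over 0.1, range -0.0934 to 0.1338). Among pairs with different numbers, FoB knockout 3 reached 0.1952 with FoB wild type 1 and -0.209 with FoB wild type 2. The deviations were taken from means of 3 libraries, so these values cannot tell whether same-numbered libraries share an animal or a batch. With the replicate block there were 61 higher and 39 lower in knockout MZB, 34 and 39 in knockout FoB, 1896 and 4433 in wild-type MZB against FoB, 1869 and 3709 in knockout MZB against FoB, and 0 and 0 for the interaction. Of the named calls 14 of 34 in MZB, 17 of 30 in FoB and 47 of 50 between wild-type cell types were kept without any 1 library, and DESeq2 called 15, 19 and 43 of the named calls and not 17, 11 and 7. With 3 libraries a group, low regions limit what could be called.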
